A study of Mus musculus with 18 samples.

Results

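The integrated stress response is the program by which cells under amino acid shortage, endoplasmic reticulum (ER) stress and related insults slow protein synthesis while raising a defined set of transcripts. It was followed here through 10 genes, Atf4, Atf5, Ddit3, Trib3, Asns, Chac1, Sesn2, Psat1, Hspa5 and Xbp1, which were chosen by symbol from the 17198 genes of the deposited table. All 10 were present, and they were chosen with earlier results of these data known. The RNA was that of cultured mouse sensory neurons, taken from the dorsal root ganglia (DRG) that flank the spinal cord. One genotype was wild type (WT). The other (HET) was heterozygous and carried 1 tm1a allele of Dynlrb1, which encodes a light chain of the motor dynein. No other allele or agent is named for either genotype. Cultures were taken at 12, 24 and 48 h, with 3 biological replicates in each of the 6 groups, 18 cultures in all. Replicate numbers are 1, 2 and 5 for the earlier times, while the 48 h cultures carry 1, 2 and 3. The age and sex of the mice, and whether a culture pooled animals, are not given in the sources used here. The p-values below therefore measure the spread between these cultures, as left by the authors' processing.

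In the integrated stress response, kinases that sense stress phosphorylate the initiation factor eIF2, which lowers general translation but favours translation of the transcription factor ATF4. ATF4 raises genes for amino acid synthesis, uptake and tRNA charging, and it acts with CHOP, the product of Ddit3, on genes tied to cell death and to recovery of translation. The other sensor arms of the ER, ATF6 and IRE1 with XBP1, mainly raise chaperones such as BiP, the product of Hspa5. Because ATF4 is controlled largely in translation, and XBP1 by splicing of its mRNA, the transcript level of neither gene reports the activity of its protein.

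In the GENCODE annotation of GRCm38, the mm10 build named in the submitters' processing notes, Atf4 lies on chromosome 15 from 80255184 to 80257541 on the plus strand and overlaps 0 other genes. Sesn2 lies on chromosome 4 from 132492032 to 132510501 on the minus strand and shares 6089 bases with the antisense-class gene Gm12981, which is annotated on the same strand. Ddit3, on chromosome 10 from 127290774 to 127296288, shares 68 bases with Mars and 15 bases with Gm4189, both on the opposite strand, and spans a second entry of the same name. Atf5, on chromosome 7 from 44812256 to 44816658, shares 571 bases with Nup62 and 272 bases with Il4i1, both on the opposite strand. Psat1, on chromosome 19 from 15904678 to 15947337, contains the processed pseudogene Gm3329. Whether the authors' counting used strand is not given in the sources used here, so reads in the opposite-strand overlaps cannot be assigned to 1 gene. For overlaps on the same strand, as with Gm12981, strand would not separate the reads. These overlaps are of whole gene spans, and exons were not compared. Trib3 (chromosome 2, from 152337422 to 152344032), Asns (chromosome 6, from 7675169 to 7693254), Chac1 (chromosome 2, from 119351229 to 119354381), Hspa5 (chromosome 2, from 34771970 to 34777547) and Xbp1 (chromosome 11, from 5520659 to 5525893) overlap 0 other genes.

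Promoter sequences were examined for elements known for these arms. All 10 members matched the RefSeq promoter table (GRCm38.p6), and the 250 bases before each start site were searched on both strands. Atf5 and Psat1 have 2 windows each, so counts of members and shares of windows are not the same measure. The C/EBP-ATF response element TGATGNAA, to which ATF4 dimers bind, was present in 2 of the 10 members, Asns and Chac1, against 3.45% of the 32851 windows in the table. The ER stress element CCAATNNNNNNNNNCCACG, read by ATF6, was present in 1 member, Hspa5, against 0.113% of windows. The element TGACGTGG, bound by XBP1 and ATF6, was in 0 of the 10 members and in 0.563% of windows. The last 5 letters of the ER stress element are also the first 5 of the complement of TGACGTGG, so these motifs can share bases, and each was counted on its own. These are matches of letters, not shown binding sites. Elements farther than 250 bases from the start, or with other letters, were not searched. The windows of the 3 members that hold a match are printed 5′ to 3′ on the strand of the gene, with the match in capitals, because Asns and Chac1 share the element yet moved differently with time, as described below. The Asns window is chr6:7693210-7693459 on the minus strand, that of Chac1 is chr2:119350992-119351241 on the plus strand and that of Hspa5 is chr2:34771840-34772089 on the plus strand.
Asns: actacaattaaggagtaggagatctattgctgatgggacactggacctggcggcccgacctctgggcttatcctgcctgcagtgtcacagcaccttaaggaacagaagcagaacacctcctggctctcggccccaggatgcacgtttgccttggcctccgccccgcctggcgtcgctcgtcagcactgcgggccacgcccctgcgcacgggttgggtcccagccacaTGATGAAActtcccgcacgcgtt
Chac1: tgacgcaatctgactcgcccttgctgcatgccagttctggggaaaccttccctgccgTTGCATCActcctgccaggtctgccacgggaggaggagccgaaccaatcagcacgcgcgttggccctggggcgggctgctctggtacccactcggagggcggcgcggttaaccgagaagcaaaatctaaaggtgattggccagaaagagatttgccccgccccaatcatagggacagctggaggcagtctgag
Hspa5: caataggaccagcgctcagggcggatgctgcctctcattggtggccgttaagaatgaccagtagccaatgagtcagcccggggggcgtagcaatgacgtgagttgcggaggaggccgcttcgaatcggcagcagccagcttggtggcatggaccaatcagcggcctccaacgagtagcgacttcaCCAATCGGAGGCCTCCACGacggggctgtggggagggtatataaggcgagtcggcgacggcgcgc
The match begins 23 bases before the start in Asns and 65 bases before it in Hspa5. In Chac1 the element lies on the other strand, 193 to 186 bases before the start. These are RefSeq starts, which differ from the GENCODE ends of the genes given above.

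Values are the authors' normalized counts, which have nearly the same total in every culture, from 41509705 to 41509874. Sequencing depth is therefore unknown, and precision rests on the replicates alone. Dynlrb1 in HET was 56.3% of WT averaged over the times (log2 fold change -0.83, SE 0.07, limma adjusted p = 2.85e-05), with no overlap between genotypes at any time. At single times its limma adjusted p was 0.0655, 0.0390 and 0.0501. One library stands apart. On the first principal component of all genes, which holds 43.5% of the variance, HET 48 h replicate 3 lay at -15.5, while the other HET 48 h cultures lay at 45.8 and 27.4 and the WT 48 h cultures from 43.9 to 85.6. The 24 h cultures of both genotypes lay from -10.3 to 16.9 and the 12 h cultures from -55.5 to -31, with this library between them. Its profile, with the mean of all cultures taken away, had an r of 0.245 with HET 12 h and 0.239 with WT 24 h. The r was 0.054 with HET 24 h, 0.001 with WT 12 h, -0.259 with the other HET 48 h cultures and -0.411 with WT 48 h. The Dynlrb1 count of this library, 3243, is that of a HET culture. All 10 members were nearer in this library to the HET 24 h mean than to the mean of the other HET 48 h cultures, as were 63.8% of all genes. Nearness to the 12 h means was not counted. Calls on HET at 48 h are therefore given with and without it. Sensory neuron markers were all 14 detected, with summed FPKM (fragments per kilobase, scaled to library size) from 7509 to 10840. Markers of other cells were detected too, with 0 at a level of 0. Between 12 and 48 h in WT the summed FPKM of 10 Schwann and satellite glia markers moved from 547-700 to 476-505, that of 6 fibroblast markers from 39.9-88.2 to 107-154, that of 7 macrophage markers from 19.6-27.1 to 46.0-87.8 and that of 4 endothelial markers from 48.4-62.9 to 23.6-33.3. At 48 h the genotypes did not overlap in the macrophage sum (27.4-43.1 in HET) or the neuron sum (8367-9005 in HET, 7509-8211 in WT). Their glia, fibroblast and endothelial sums overlapped at that time. The part of such shifts in the changes with time and the genotype comparisons below was not tested. In such bulk samples, fewer cells of a type and less RNA per cell cannot be told apart.

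**Figure D1:**
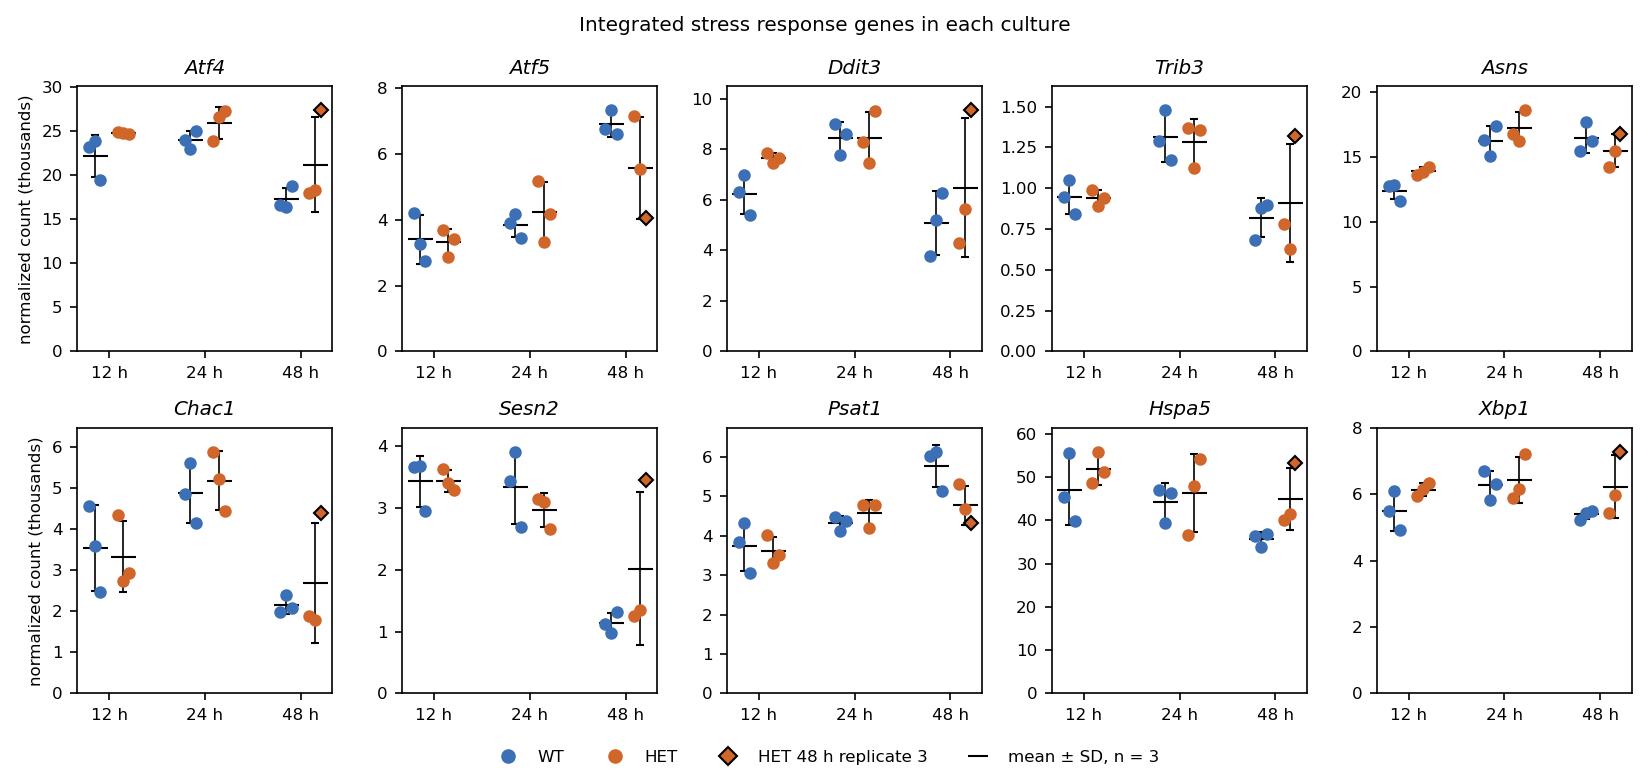
Normalized counts (linear axes from 0) of the 10 genes in each culture, by time and genotype, with mean and SD of 3 cultures per group. Sesn2 in WT lies between 983 and 1315 at 48 h and at 2699 or above at 12 and 24 h, and HET 48 h replicate 3 (black-edged diamond) lies with the 24 h cultures for most genes.

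The genes were expressed over a wide range of levels. Per length, as FPKM in WT at 12 h, Hspa5 was highest at 433 ± 73.3 (SD, n = 3), followed by Atf4 at 308 ± 32.7 (SD, n = 3). Ddit3 at 172 ± 21.8 and Asns at 155 ± 8.28 (each SD, n = 3) came next and overlapped each other. Xbp1, Chac1, Atf5, Psat1 and Sesn2 formed a group from 59.8 down to 31.1, in which each neighbour overlapped the next. Trib3 was lowest at 11.1 ± 1.22 (SD, n = 3) and did not overlap Sesn2. At 48 h in WT the order had changed. Hspa5 at 329 ± 14.7, Atf4 at 240 ± 17.7, Asns at 206 ± 14.2, Ddit3 at 141 ± 34.6 and Atf5 at 95.9 ± 5.25 (each SD, n = 3) did not overlap their neighbours. Psat1 at 60.5 overlapped Xbp1 at 58.5, and Sesn2 at 10.3 overlapped Trib3 at 9.62. The order of the HET means was that of WT at both earlier times, and by 48 h it differed from WT in the neighbours Psat1 and Xbp1, with means of 50.1 and 67.5 FPKM over all HET cultures and 52.4 and 61.8 without replicate 3.

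Between 12 and 24 h little of the set passed the test in WT. Asns, the enzyme that makes asparagine, was the 1 member that rose. Its normalized counts were 12752, 12825 and 11644 at 12 h and 16294, 15092 and 17366 at 24 h, so that the lowest culture at 24 h lay above the highest at 12 h. On the log2 scale the change was 0.39 (SE 0.08, limma adjusted p = 0.0247). Leaving out any 1 of the 6 cultures of these groups ended this call (limma adjusted p from 0.0503 to 0.110). Those 6 fits called between 0 and 197 of all genes, against 622 with all cultures. Of all genes tested, 2.96% were called higher and 0.657% lower. Trib3, a pseudokinase that is induced by ATF4 and CHOP, went from 841-1049 to 1173-1478 without overlap and did not pass (log2 fold change 0.47, limma adjusted p = 0.173). Without HET 48 h replicate 3, which enters the shared estimate of the spread, Trib3 was called too (limma adjusted p = 0.0442), giving 2 members. In that fit 5.03% of genes were called higher and 1.48% lower.

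Asns was again the 1 member that passed in HET between 12 and 24 h. Its counts were 13588, 13852 and 14214 at 12 h and 16780, 16261 and 18617 at 24 h, again without overlap. On the log2 scale the change was 0.31 (SE 0.08, limma adjusted p = 0.0182). The call was lost without HET 12 h replicate 1 or 2 or HET 24 h replicate 5. The background was 13.1% of genes called higher and 5.76% lower. With the replicate number as a block, 3 members were called, all higher: Asns, Psat1 (limma adjusted p = 0.0292) and Chac1 (limma adjusted p = 0.0401). In that fit 16.4% of genes were called higher and 7.69% lower. Without HET 48 h replicate 3 and without a block, 4 members were called, all higher: Asns, Trib3, Chac1 and Psat1. There 16.0% of genes were called higher and 7.07% lower. Neither Atf4 nor Hspa5 was called between 12 and 24 h in either genotype.

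From 12 to 48 h in WT the set divided. Of the 10 members, 3 rose (Atf5, Psat1 and Asns), 3 fell (Sesn2, Hspa5 and Atf4) and 4 did not pass the test. Over all genes 30.0% were called higher and 17.1% lower, so a share of called members of this size is not far from that of genes in general. The median log2 fold change of the members was -0.26, and that of all genes was 0.11.

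Sesn2, which encodes a stress-induced inhibitor of the growth kinase mTORC1, showed the largest change of the 10. Its counts were 3663, 3671 and 2948 at 12 h, 3430, 3902 and 2699 at 24 h and 1115, 983 and 1315 at 48 h. All 3 cultures at 48 h lay below all 6 earlier ones. From 12 to 48 h it fell by 1.59 on the log2 scale (SE 0.26, limma adjusted p = 0.000193), a level 3.02-fold lower. That change stood at percentile 2.9 of all genes, counted from the lowest. From 24 to 48 h it fell by 1.55 (limma adjusted p = 0.00343). Both calls were kept whichever of the 6 cultures compared was left out.

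Atf5, the ATF4 relative that is likewise controlled in translation, changed most in the other direction. Its counts were 4218, 3281 and 2751 at 12 h, 3894, 4183 and 3465 at 24 h and 6774, 7341 and 6623 at 48 h. The 48 h cultures lay above all others. It was 2.05-fold higher at 48 h than at 12 h (log2 fold change 1.04, SE 0.19, limma adjusted p = 0.00043). Relative to 24 h the log2 fold change was 0.85 (limma adjusted p = 0.00587).

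Psat1 and Asns, enzymes of amino acid synthesis, both rose. Psat1, in the serine pathway, had counts of 3826, 4322 and 3060 at 12 h and 6022, 6117 and 5140 at 48 h, without overlap (log2 fold change 0.63, SE 0.12, limma adjusted p = 0.000504). Asns reached 15491, 17723 and 16218 at 48 h, above its 12 h cultures and overlapping those at 24 h. Its log2 fold change from 12 h was 0.41 (SE 0.08, limma adjusted p = 0.000971), and from 24 h it was 0.02 (limma adjusted p = 0.879). Atf5, Psat1, Asns and Sesn2 each kept their 48 h against 12 h call in all 6 fits that left out 1 culture.

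Atf4 itself fell. Its WT counts were 23150, 23797 and 19447 at 12 h, 23955, 22984 and 25024 at 24 h and 16596, 16413 and 18697 at 48 h. No 48 h culture reached an earlier one. The log2 fold change was -0.36 from 12 h (SE 0.13, limma adjusted p = 0.0299) and -0.48 from 24 h (limma adjusted p = 0.0128). The first call was lost without WT 12 h replicate 1 or 2 or WT 48 h replicate 1 or 2, with adjusted p up to 0.107 by limma, and the second without WT 48 h replicate 2 (limma adjusted p = 0.0546).

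Hspa5, the main ER chaperone, had counts of 45489, 55569 and 39859 at 12 h and 36380, 33899 and 36885 at 48 h. The groups did not overlap, though the highest culture at 48 h was near the lowest at 12 h. It fell by 0.38 on the log2 scale (SE 0.15, limma adjusted p = 0.0403), a call that remained in 1 of 6 fits that left out a culture, the one without WT 12 h replicate 5. Xbp1, the transcription factor of the IRE1 arm, was within 4913-6118 at 12 h and 5235-5499 at 48 h, with a 95% interval of the log2 change from -0.25 to 0.20.

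Ddit3, Chac1 and Trib3 had their highest WT means at 24 h and fell from there to 48 h. Ddit3, which encodes CHOP, had WT counts of 6322, 6964 and 5394 at 12 h, 8990, 7751 and 8604 at 24 h and 3784, 5184 and 6276 at 48 h. It fell by 0.76 from 24 to 48 h (SE 0.22, limma adjusted p = 0.0172). Between 12 and 48 h its groups overlapped and it did not pass (limma adjusted p = 0.245). Chac1, an enzyme that degrades glutathione, had counts of 4559, 3589 and 2457 at 12 h, 4857, 5618 and 4150 at 24 h and 1975, 2404 and 2079 at 48 h. From 24 to 48 h it fell by 1.17 (SE 0.28, limma adjusted p = 0.00761). From 12 to 48 h the log2 fold change was -0.67 and missed the threshold (limma adjusted p = 0.0577), but it passed without WT 12 h replicate 5 (limma adjusted p = 0.0218). Trib3 fell by 0.69 from 24 to 48 h (SE 0.20, limma adjusted p = 0.0179).

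Between 24 and 48 h in WT, 5 members fell (Sesn2, Chac1, Ddit3, Trib3 and Atf4) and 2 rose (Atf5 and Psat1), against 10.3% of all genes called lower and 17.4% higher. The calls of Sesn2, Chac1 and Atf5 held in all 6 fits that left out a culture. That of Ddit3 was lost without WT 24 h replicate 1 or WT 48 h replicate 1, that of Trib3 without WT 24 h replicate 2 or WT 48 h replicate 1, and that of Psat1 without WT 24 h replicate 2 or WT 48 h replicate 1 or 2. The comparisons with 12 h and with 24 h share the 48 h cultures. In the authors' deposited table, 7 members had an adjusted p under 0.05 for 48 h against 12 h in WT, where 45.4% of all genes did. The seventh was Chac1, with a log2 fold change of -0.72 and an adjusted p of 0.0185 in the authors' deposited table.

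**Figure D2:**
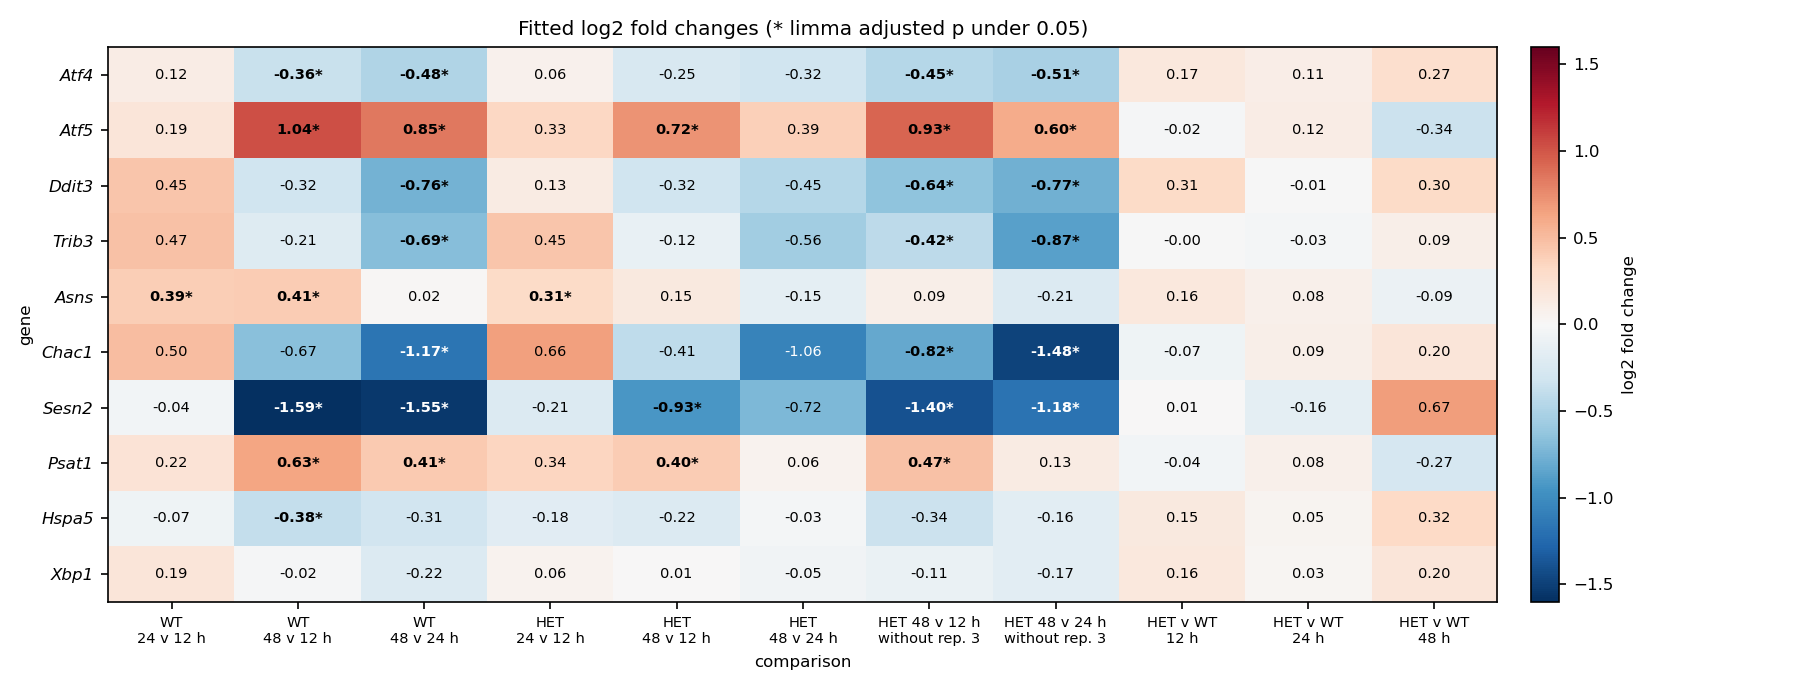
Fitted log2 fold changes of the 10 genes (rows) in 11 comparisons (columns), with an asterisk where the limma adjusted p was under 0.05; red is higher and blue lower in the first-named group. In WT at 48 h against 24 h, 5 genes are lower and 2 higher, and in the 3 genotype columns 0 genes are called.

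In HET cultures the calls from 12 to 48 h changed with the libraries used. With all cultures, 2 members rose from 12 to 48 h, Atf5 (log2 fold change 0.72, limma adjusted p = 0.0249) and Psat1 (log2 fold change 0.40, limma adjusted p = 0.0367), and Sesn2 fell by 0.93 (limma adjusted p = 0.0306). The background was 10.6% of genes called higher and 3.62% lower. Without HET 48 h replicate 3, the same 2 members were called higher and 5 were called lower: Atf4, Ddit3, Trib3, Chac1 and Sesn2. In that fit 19.8% of genes were called higher and 8.61% lower. Leaving out HET 12 h replicate 2, HET 48 h replicate 1 or HET 48 h replicate 2 instead left 0 members called, and these 3 fits called 0 of all genes, against 2442 with all cultures. Leaving out HET 12 h replicate 5 left 1 member, Atf5. Of the 6 fits that left out a culture, Atf5 was called in 3, Psat1 in 2 and Sesn2 in 1, the one without HET 48 h replicate 3. In the authors' deposited table, 3 members had an adjusted p under 0.05 in this comparison, as did 15.5% of all genes.

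Sesn2 showed the largest gap between these libraries. Its HET counts were 3626, 3397 and 3285 at 12 h, 3150, 3102 and 2658 at 24 h and 1260, 1348 and 3452 at 48 h. Replicates 1 and 2 at 48 h were low like the WT cultures of that time, while replicate 3 was as high as the 12 h cultures. Without that library the fall from 12 h was 1.40 on the log2 scale (limma adjusted p = 3.69e-05). Chac1 had 4332, 2727 and 2933 at 12 h, 5872, 5222 and 4438 at 24 h and 1889, 1796 and 4380 at 48 h. For Chac1, replicate 3 lay between the highest 12 h culture and the lowest 24 h culture. Ddit3 at 48 h had 4278, 5629 and 9545, Atf4 had 17922, 18265 and 27351, and Trib3 had 782, 628 and 1317. For each of these 5 genes replicate 3 was the highest HET culture at 48 h, and for Atf5, with 7169, 5538 and 4058, it was the lowest. Relative to the mean of the other HET 48 h cultures, the library differed by 1.40 on the log2 scale for Sesn2, 1.25 for Chac1, 0.96 for Ddit3, 0.91 for Trib3, 0.60 for Atf4 and -0.63 for Atf5. Its 6 fibroblast markers summed to 87.4 FPKM, against 104 and 155 in the other HET 48 h cultures and 49.6-52.3 in HET at 24 h. Its 7 macrophage markers summed to 27.6 FPKM, against 27.4 and 43.1 in the other HET 48 h cultures and 39.3-70.5 in HET at 24 h. Its 10 glia markers summed to 584 FPKM (485 and 551 in the other HET 48 h cultures, 551-613 in HET at 24 h) and its 4 endothelial markers to 39.8 (31.9 and 27.9, and 33.3-52.9). Its 14 neuron markers summed to 9005, against 8441 and 8367 in the other HET 48 h cultures and 7963-8361 in HET at 24 h. The cause of its position was not tested.

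From 24 to 48 h in HET, 0 members were called with all cultures by limma, 4 of them (Chac1, Trib3, Sesn2 and Atf4) having an unadjusted p under 0.05, as did 19.1% of all genes. The nearest was Chac1 (log2 fold change -1.06, limma adjusted p = 0.0528). The background was 1.42% of genes called higher and 1.08% lower. Without HET 48 h replicate 3, 1 member rose, Atf5 (log2 fold change 0.60, limma adjusted p = 0.0372), and 5 fell: Chac1 by 1.48, Sesn2 by 1.18, Trib3 by 0.87, Ddit3 by 0.77 and Atf4 by 0.51. In that fit 8.30% of genes were called higher and 6.59% lower.

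**Figure D3:**
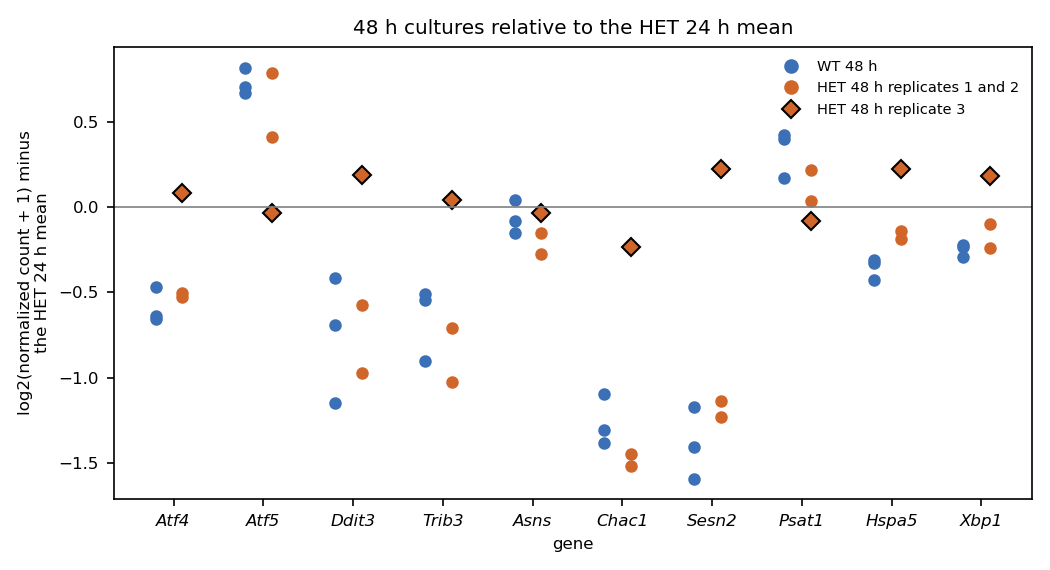
Each 48 h culture's log2(normalized count + 1) minus the HET 24 h mean (line at 0) for the 10 genes, WT in blue and HET in orange. Replicate 3 of HET (diamond) lies within 0.23 of the line for every gene, while HET replicates 1 and 2 and all WT 48 h cultures lie below it for Atf4, Ddit3, Trib3, Chac1 and Sesn2.

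None of the 10 members was called between HET and WT at any time. The question of these comparisons is whether expression in HET differs from WT at each time. The limma fit called 0 members at 12 h, 0 at 24 h, 0 at 48 h and 0 for the average over the times, where 0.00581%, 0.00581%, 0% and 0.0174% of all genes were called. At an unadjusted p under 0.05 the members numbered 0, 0, 4 and 1, while 8.41%, 1.15%, 22.0% and 13.5% of all genes were under it. The 1 in the average was Atf4, with a log2 difference of 0.18 (limma adjusted p = 0.319) and of 0.12 without HET 48 h replicate 3. The log2 fold changes ran from -0.07 to 0.31 at 12 h and from -0.16 to 0.12 at 24 h. At 48 h they ran from -0.34 to 0.67, with a median of 0.20 against -0.03 for all genes. With HET 48 h replicate 3 left out they ran from -0.22 to 0.21, with a median of -0.08 against -0.02 for all genes, and 0 members had an unadjusted p under 0.05, where 11.5% of all genes did. A miss of the threshold does not show equal levels: at 24 h the 95% interval for Atf4 ran from -0.16 to 0.38 and that for Sesn2 from -0.71 to 0.40.

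The largest genotype difference was that of Sesn2 at 48 h. The HET counts of 1260, 1348 and 3452 overlapped the WT counts of 1115, 983 and 1315. The log2 difference was 0.67 (SE 0.26, 95% interval from 0.12 to 1.23, limma adjusted p = 0.149). With the replicate number as a block it was called (limma adjusted p = 0.0173), as were 10.4% of all genes in that fit. Without HET 48 h replicate 3 the log2 fold change was 0.21 (limma adjusted p = 0.653, where 0% of genes were called), and with the block and without that library it was 0.32 (limma adjusted p = 0.168, where 0.355% of genes were called). The authors' deposited table gives Sesn2 a log2 fold change of 0.83 with an adjusted p of 0.0272, and 5.98% of all genes were under 0.05.

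The other members with an unadjusted p under 0.05 at 48 h were Hspa5, Atf4 and Psat1. Hspa5 in HET had counts of 40166, 41396 and 53311, all above the WT counts of 36380, 33899 and 36885 (log2 fold change 0.32, limma adjusted p = 0.212). Without replicate 3 the log2 fold change was 0.19 (limma adjusted p = 0.682). Atf4 differed by 0.27 (limma adjusted p = 0.226) and by 0.07 without replicate 3. Psat1 differed by -0.27 (limma adjusted p = 0.194) and by -0.20 without it. The interaction term, which tests whether the change from 12 to 48 h differed between the genotypes, called 0 members by limma, and 0% of all genes. It had 1 member, Asns, at an unadjusted p under 0.05, as had 8.92% of all genes (difference -0.26, limma adjusted p = 0.555, and -0.31 without replicate 3).

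Other genes of these pathways were taken from 6 lists, chosen with earlier results of these data known. Their counts are set beside those of all genes as a description only. From 12 to 48 h in WT 30.0% of all genes rose and 17.1% fell, and their median log2 fold change was 0.11. Of 9 amino acid transporters, 7 fell and 1 rose from 12 to 48 h in WT. Slc7a11, the cystine carrier, fell by 1.63 (limma adjusted p = 0.000288), Slc6a9, a glycine transporter, by 1.17 (limma adjusted p = 0.000236) and Slc1a4, a carrier of neutral amino acids, by 0.70 (limma adjusted p = 0.000285). Of 14 other effectors of ATF4 and CHOP, 9 fell and 2 rose. Stc2, a secreted glycoprotein, fell by 2.34 (limma adjusted p = 0.000515), the transcription factor Cebpb by 1.14 and the stress cytokine Gdf15 by 1.04. Between 24 and 48 h, 10 of the 14 fell and 1 rose, where 10.3% of all genes fell and 17.4% rose. The apoptosis gene Bbc3 fell by 1.23 and the transcription factor Atf3 by 1.02.

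Of 9 synthesis and one-carbon genes, 4 rose, 1 fell and 4 did not pass from 12 to 48 h in WT, with a list median of 0.12 that lay near the 0.11 of all genes. Pycr1, of proline synthesis, had a log2 fold change of 1.33 (limma adjusted p = 0.000644) and Phgdh, of serine synthesis, one of 1.07 (limma adjusted p = 0.00489). Of 12 cytosolic aminoacyl-tRNA synthetases, 7 rose and 0 fell from 12 to 24 h in WT, and 8 rose and 0 fell in HET, where 2.96% and 13.1% of all genes rose. Wars rose by 0.41 in WT and 0.52 in HET, and Mars, which overlaps Ddit3, by 0.60 in HET (limma adjusted p = 0.0013). From 12 to 48 h in WT, 5 rose and 0 fell. In HET from 24 to 48 h, 3 fell with all cultures, where 1.08% of all genes fell, and 8 without replicate 3, where 6.59% did.

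Of 12 genes of the eIF2 kinases, eIF2, its exchange factor and its phosphatase, 6 rose and 2 fell from 12 to 48 h in WT, and the list median was 0.28. Falls in 2 of 12 are near the share of all genes. Those that fell were both regulatory subunits of the phosphatase that reverses eIF2 phosphorylation, Ppp1r15a (limma adjusted p = 0.000415) and Ppp1r15b, the latter by 0.90 (limma adjusted p = 0.000138). From 24 to 48 h Ppp1r15a fell by 1.51 (limma adjusted p = 0.00343). Eif2b1, of the exchange factor, rose by 0.57. Of 23 genes of the ATF6 and XBP1 arm, 11 rose and 4 fell, the falls again near that share. The calreticulin gene Calr rose by 1.07 (limma adjusted p = 0.000173) and the disulfide isomerase P4hb by 0.84 (limma adjusted p = 0.000106), while the co-chaperone Dnajb9 fell by 1.44 (limma adjusted p = 0.000316). Hspa5 was thus lower while Calr and P4hb of the same compartment were higher. The Hspa5 call was lost in most fits that left out a culture of the groups compared, as given above. The promoters of Calr and P4hb were not searched for the ER stress element. In HET from 12 to 48 h, 3 transporters and 2 other effectors fell with all cultures, and 5 and 8 without replicate 3. Of the ATF6 and XBP1 arm, 4 rose and 1 fell there, and 10 and 3 without that library. The shares of all genes that fell were 3.62% and 8.61%, and of those that rose 10.6% and 19.8%. In each genotype comparison 0 genes of all 6 lists were called by limma without a block, and the lists were not counted with one. At 48 h between 2 and 6 genes per list had an unadjusted p under 0.05, where 22.0% of all genes did. Without HET 48 h replicate 3 the counts went from 3 to 0 of 12 eIF2 genes, 3 to 1 of 9 synthesis genes, 2 to 6 of 12 synthetases, 6 to 2 of 14 other effectors and 6 to 2 of 23 genes of the ATF6 and XBP1 arm, and stayed at 3 of 9 transporters, where 11.5% of all genes were under it. All 12 synthetases were then lower in HET (median -0.21, all genes -0.02), against 10 with all cultures. In the interaction term 7 of the 12 had an unadjusted p under 0.05 without that library, and 1 with all cultures. Of all 17198 genes, 1024 and 1534 were under it. The lowest adjusted p at 48 h was that of Pycr1, with a log2 fold change of -1.04 (limma adjusted p = 0.0556) and of -0.73 without replicate 3 (limma adjusted p = 0.251).

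**Figure D4:**
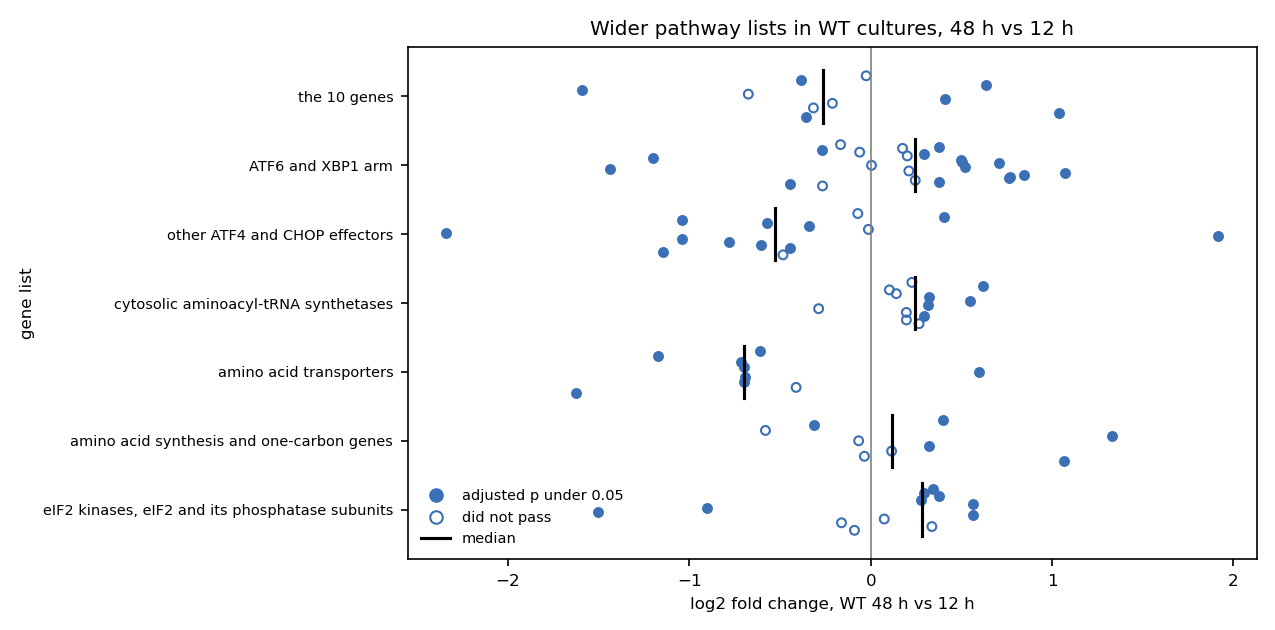
Log2 fold change of each gene in 6 pathway lists and of the 10 genes, WT at 48 h against 12 h (horizontal axis); filled points passed a limma adjusted p of 0.05 and black bars are list medians. The medians of the transporters (-0.70) and of the other ATF4 and CHOP effectors (-0.53) lie below 0, those of the synthetases (0.25) and the ATF6 and XBP1 arm (0.24) above it.

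Correlations between members are given as descriptions over the 18 cultures, which fall by time and share 1 normalization. Atf4 and Ddit3 had a Pearson r of 0.90, Trib3 and Chac1 of 0.90 and Atf4 and Sesn2 of 0.86. Atf5 and Psat1 had an r of 0.89, while Atf5 and Sesn2 had an r of -0.85. Once each group's mean was taken away and HET 48 h replicate 3 left out, the r of Atf5 and Sesn2 was 0.30 and that of Atf4 and Sesn2 was 0.25. Hspa5 and Xbp1 kept an r of 0.85 and Atf4 and Hspa5 of 0.79 in these deviations. Among the 12476 genes whose mean reached 100, the 5 whose pattern over the 18 cultures was most like that of Atf4 were March5 (r = 0.975), Ewsr1 (r = 0.974), Tmbim6 (r = 0.970), Fbxl5 (r = 0.969) and Bsdc1 (r = 0.965). For Hspa5 they were Cpb1 (r = 0.943), Ptprc (r = 0.942), Spryd7 (r = 0.938), Dstn (r = 0.938) and Rps12 (r = 0.938). Ptprc is also 1 of the 7 macrophage markers, whose summed FPKM was higher at 48 than at 12 h in WT, while Hspa5 was lower. That sum need not hold for each marker.

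**Figure D5:**
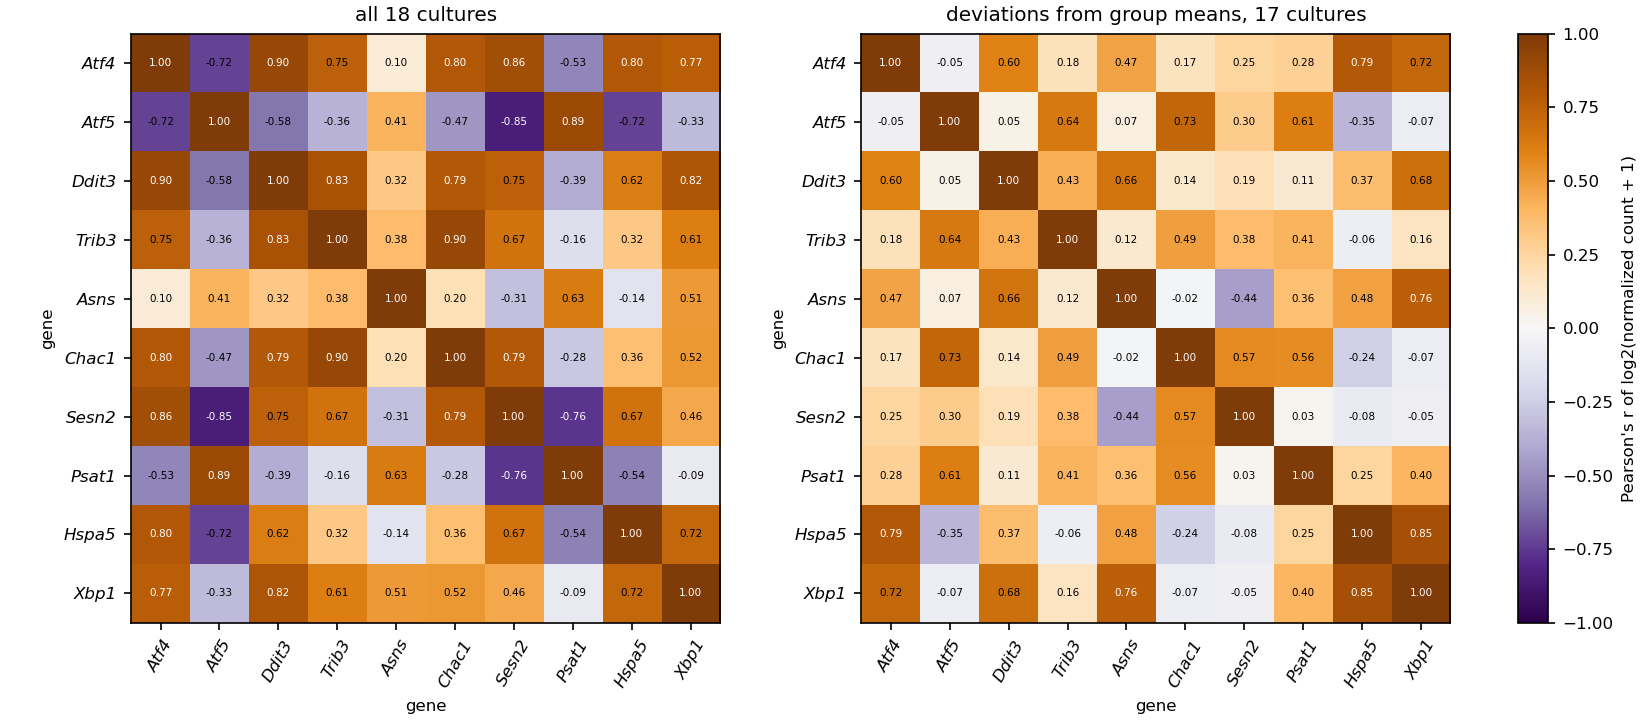
Pearson's r of log2(normalized count + 1) between the 10 genes, over all 18 cultures (left) and over deviations from group means in the 17 cultures without HET 48 h replicate 3 (right). The negative values of Atf5 and Psat1 with Sesn2 on the left (-0.85 and -0.76) are 0.30 and 0.03 on the right.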

How the data were processed

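RNA-seq of 18 cultures was read from 1 deposited table of 17198 genes. Per the submitters' processing notes, CASAVA 1.8.2, edgeR and the mm10 build were used. The aligner, counter and annotation are not given in the sources used here. Per the file headers, 18 columns hold the authors' normalized counts, a signal with fractional values and equal totals. The authors also deposited signal columns headed by the sample name alone, FPKM values, log2 fold changes and adjusted p-values. The logarithms of these signal columns span 15 of the 17 dimensions that 18 centred samples allow, so 2 had been taken out by a step not given in the sources used here. The main fit kept 12 residual degrees of freedom and made no allowance for this, so its SEs may be too small. Another 24 per-sample columns of ratios were not used.

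A count model had been planned for raw counts and limma for normalized values. No raw counts were found, so limma 3.58.1 in R 4.3.3 was fitted to log2(normalized count + 1), with 1 coefficient per group over all 18 samples, eBayes with a trend, and Benjamini-Hochberg adjustment over the 17198 genes in each of 11 comparisons at 0.05. This scale understates changes of low genes. A mean of at least 1 removed 0 genes. Tested on simulated data for HET against WT at 48 h over 17198 genes, the fit recovered 66.5% of 200 genes changed by 1 on the log2 scale, and 6.34% of its calls were false. The simulated noise was drawn separately for each gene, with no outlying library and no dimensions taken out. These rates need not hold for the real cultures. The members and lists were chosen with earlier results of these data known. The genes named are all 10 members, Dynlrb1, per list and comparison up to 3 genes with the lowest adjusted p among those passing (otherwise the 1 with the lowest p), of which the text gives a part, and the 5 genes most like Atf4 and Hspa5.

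Replicate numbers come from the titles. Same-numbered HET and WT samples had deviations correlated at 0.316, 0.175 and 0.358 at 12 h, 0.147, -0.213 and 0.576 at 24 h, and 0.444, 0.476 and 0.540 at 48 h. By the rule that every same-numbered pair exceed 0.1, numbers may pair the genotypes at 12 and 48 h. They may also pair HET at 12 with 24 h (0.583, 0.281 and 0.381). The labels state no pairing, and the rule was applied to these same data. The highest differently numbered pairs of the genotypes were 0.008 at 12 h, 0.49 at 24 h and 0.18 at 48 h. Figures were drawn with matplotlib 3.10.9. The alternatives tried were a pseudocount of 0.1, a minimum mean of 5 or none, a replicate block, only the groups compared, the columns headed by sample name, quantile normalization, the removed directions as covariates, and leaving out each culture.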

Additional observations from a re-analysis of the deposited data

How the results depend on the processing

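For 48 h against 12 h in WT, 9 members were called with either block (main 6), Ddit3 (log2 fold change -0.56, limma adjusted p = 0.00792), Trib3 and Chac1 being added, while 8848 and 8148 of all genes were called (main 8098). There 7 members were called with the columns headed by sample name or with only the groups compared, where 7937 and 7547 of all genes were called. Quantile normalization gave 5 members, with 7652 of all genes. Leaving out 1 culture of the groups compared gave 4 to 7 members, with 6038 to 7670 of all genes. In the genotype comparisons other than 48 h, 0 members were called under every alternative run. With the replicate number as a block, 1 member was called for HET against WT at 48 h (main 0), 3 for 24 h against 12 h in HET (main 1), 6 for 48 h against 12 h in HET (main 3) and 5 for 48 h against 24 h in HET (main 0). That fit has 9 residual degrees of freedom, and comparisons with 48 h share only numbers 1 and 2. A block of the number within a time or a genotype, added after the planned block's calls had been seen, gave 1, 5, 7 and 6 in these comparisons and 3 for 24 h against 12 h in WT (main 1). Either block without HET 48 h replicate 3, added after that library had been seen to stand apart, gave 7 for 48 h against 12 h and 6 for 48 h against 24 h in HET, and 0 for HET against WT at 48 h. With the removed directions as covariates, 2 members were called for 24 h against 12 h in WT, 2 in HET and 1 for 48 h against 24 h in HET. With only the groups compared, 3 were called for 24 h against 12 h in HET and 0 for 48 h against 12 h in HET. Quantile normalization gave 1 for 48 h against 24 h in HET. All-gene counts follow below for part of these fits, and the other member counts have no share beside them. In WT, leaving out 1 culture of the groups compared gave 0 members for 24 h against 12 h. It gave 4 to 7 for 48 h against 24 h in WT and 0 to 2 for 24 h against 12 h in HET. For 48 h in HET, leaving out 1 such culture gave 0 to 7 against 12 h and 0 to 6 against 24 h. In these fits the log2 fold change of Ddit3 in HET against WT at 48 h ran from -0.0196 to 0.559, reversing without HET 48 h replicate 3, and that of Trib3 in HET at 48 h against 12 h ran from -0.421 to 0.113, reversing without HET 48 h replicate 2. Another 40 member changes, each smaller than its SE and called in no fit, are given no direction. This split was made after reversals had been seen, and 29 of these 40 changed sign in at least 1 of the alternatives. For all genes, HET against WT at 48 h went from 0 calls to 1790 with the block, 2120 with the block within a time, 61 and 663 with these without replicate 3, 276 with quantile normalization and 1 with the columns headed by sample name or the removed directions. Without WT 48 h replicate 3, HET 48 h replicate 1 or HET 48 h replicate 2 that comparison gave 931, 736 and 513 calls, with 0 members among them. Leaving out 1 culture of the groups compared gave 0 to 2 calls at 12 h and 0 to 1 at 24 h in HET against WT, 0 to 197 for 24 h against 12 h in WT, 0 to 4886 for 48 h against 12 h in HET and 0 to 2560 for 48 h against 24 h in HET. It gave as few as 1141 for 24 h against 12 h in HET (main 3252) and 2236 for 48 h against 24 h in WT (main 4772). The average over the times went from 3 to 205 and 553 with these blocks, and 299 with the second without replicate 3. At 12 h the second block gave 17 (main 1), and at 24 h either block gave 0 (main 1). For 24 h against 12 h in WT the calls went from 622 to 1218, 1621 and, with the removed directions, 1132. For 48 h against 12 h in HET they went from 2442 to 5099 and 5301 with the blocks, 5165 and 5303 without replicate 3, 1596 with quantile normalization and 0 with only the groups compared. For 48 h against 24 h in HET they went from 429 to 2084 and 2888, 2861 and 2891, 841 with the removed directions and 0 with only the groups compared, a fit that has fewer samples. The causes were not tested. Depth is unknown.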
